A study of Rattus norvegicus with 132 samples.

Results

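The comparison concerned the corticomedullary junction of the rat kidney, where 9 HS regions of interest (ROIs) were set against 9 Sham ROIs. These 18 ROIs were all those of the 132 ROIs in the series whose titles name the junction and either HS or Sham. HS and Sham each comprised 3 rats, and the labels do not expand HS, which in trauma-induced acute kidney injury commonly stands for haemorrhagic shock. Strain, age and time after injury are not given in the sources used here. The other groups of the series were RM, commonly rhabdomyolysis, and the combination RM-HS. Sections were formalin-fixed and paraffin-embedded, ROIs were picked manually, and the GeoMx spatial profiler counted barcoded probes of its mouse whole-transcriptome panel released from each ROI. All 9 HS ROIs lay on plate E, whereas 3 Sham ROIs lay on plate E and 6 on plate C. HS was therefore compared with each Sham set separately, and a change was kept where both differences had the same sign.

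At the junction the straight segment of the proximal tubule, whose cells carry a heavy transport load in a region of low oxygen supply, meets the thick ascending limb. The straight segment is the part of the nephron best known for damage when renal blood flow falls. Injured proximal tubule cells display Havcr1, also known as kidney injury molecule 1, on their apical membrane. Ccn2 (connective tissue growth factor) is a secreted matricellular protein and a classical target of the YAP and TEAD transcription factors. Pck1 (phosphoenolpyruvate carboxykinase) catalyses the committed step of gluconeogenesis, which in the kidney takes place in the proximal tubule.

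The junction ROIs carried markers of their labelled area. The amino acid transporter gene Slc7a13, a marker of the straight segment, had a median signal of 1396 in HS ROIs and 1648 in Sham ROIs at the junction, against 55.1 in Sham cortex. Aadat, Slc3a1, Slc7a12 and the thick ascending limb gene Slc12a1 were also higher in Sham junction than in Sham cortex (limma, adjusted p between 1.64e-56 and 9.72e-19 for these genes with Slc7a13). Of the other thick ascending limb markers, Egf was higher at the junction by 0.76 ± 0.19 (adjusted p = 0.00191). Kcnj1 did not pass (0.28 ± 0.17, adjusted p = 0.452). Reads per ROI, estimated from the steps between normalised values, ranged from 335363 to 1124738 in HS (median 561505) and from 546268 to 1524666 in Sham (median 1089345). All signals were normalised by the authors to a common upper quartile of 58.2 and had no unit beyond that scale, and no value was 0.

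Each group fell into 3 runs of consecutive wells with 3 junction ROIs per run. The labels do not say whether a run is an animal and do not tie ROIs to animals, so some of the 9 ROIs of a group share an animal and p-values over ROIs are too small throughout. HS run 3 stood apart from HS runs 1 and 2. Its ROIs held an estimated 955770 to 1124738 reads, against 421166 to 976482 in run 1 and 335363 to 370053 in run 2, and its negative probe, which has no target in the transcriptome, lay between 15.4 and 16.9, against 20.7 to 26.5 in the other two runs. Slc7a13 reached 3159 to 4188 in run 3, against 1221 to 1444 in runs 1 and 2. The part of depth, probe background or tissue content in the values of run 3 was not tested, and values without run 3 are given beside many of the results that it moved.

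With a plate term in the model, 25 of 8827 genes tested differed between HS and Sham at the junction (0.283% of genes, limma, adjusted p under 0.05). HS was higher for 19 genes (0.215%) and lower for 6 genes (0.068%). Without HS run 3, 73 genes passed, 26 higher and 47 lower in HS, and 17 of the 25 were among them. With 1 mean per well run and area, which leaves 3 HS and 3 Sham means at the junction, limma called 0 genes with the plate term (148 had an unadjusted p under 0.05), and in a fit of plate E ROIs alone it called 0 genes (83 at that unadjusted p). All 25 had the same sign against plate E Sham and against plate C Sham, as had 71.4% of all genes whatever their p. The rises lay between 0.66 and 1.52 on the log2(signal + 1) scale and the falls between -0.83 and -1.98, beside a median of -0.05 over all genes. Against plate E Sham alone 17 genes passed (0.193%) and against plate C Sham alone 190 genes passed (2.15%). The all-gene median was -0.06 in the plate E comparison and -0.14 in the plate C comparison, so plate C differences are read relative to that shift. Group and plate cannot be told apart in the plate C comparison.

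Of the 25 genes, 13 also passed against plate E Sham, 19 against plate C Sham and 11 against both. The 3 plate E Sham ROIs form a single well run and may come from 1 animal. The spread behind the plate E calls was estimated over all groups and areas on both plates. It is thus not a spread between Sham runs of plate E. The 11 genes were Actg1, Akr1c19, Camk2n1, Ccn2, Havcr1, Mt2, Pax8, Phldb1, Sat1, Sqstm1 and Thbs1. For 14 of the 19 risen genes all 9 HS ROIs lay above all 9 Sham ROIs, an arrangement found for 0.521% of all genes. For 2 of the 6 fallen genes, Pck1 and Akr1c19, all 9 HS ROIs lay below all 9 Sham ROIs, as for 0.306% of all genes. The genes were called on these same ROIs, so their separation is not independent support for the calls. The plate term is a single shift shared by all kidney areas. Only Sham had ROIs on both plates in the fit, so the term rests on the plate E Sham run against the plate C Sham runs. A plate shift and a difference between these Sham runs cannot be told apart in the plate-adjusted values. For 13 of the 25 genes the plate-adjusted value lay outside the interval between the plate E and plate C values. Leaving out a single plate E Sham ROI left 0, 0 or 3 of the 17 calls of the plate E comparison. In ROIs that mix cell types, fewer cells of a type and less RNA per cell cannot be told apart.

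Of the 25 genes, 9 stayed past the threshold whichever single well run or plate E Sham ROI was left out, as far as the model could be fitted, although none passed the plate-adjusted comparison with 1 mean per well run and area or within plate E alone. These were Havcr1, Sat1, Pax8, Plin2, Sqstm1, S100a10, Phldb1, Cyfip2 and Pck1. Without HS run 3, 8 genes no longer passed: Actg1, Ctsl, Igfbp1, Mt2, Odc1, Thbs1, Tubb4b and Zbtb16, whose differences were then 0.34 to 0.82. Without Sham run 2, on plate C, 12 genes no longer passed, among them Ccn2 (1.46, adjusted p = 0.0685), Camk2n1 (-0.84), Ugdh (0.97) and Akr1c19 (-0.88). Others were Actg1, Cxcl12, Mt2, Odc1, Pyroxd2, Tubb4b and Zbtb16. Without Sham run 1, 7 genes no longer passed, among them Ctsl, Cxcl12, Eif5, Odc1, Pyroxd2 and Tubb4b. Pyroxd2 was also lost without HS run 1 and Cxcl12 without HS run 2. Leaving out single plate E Sham ROIs removed 4 to 6 calls, among them those of Akr1c19, Eif5, Mt2, Odc1, Pyroxd2, Thbs1 and Zbtb16. All 25 signs stayed as they were, in fits that reuse ROIs on which the genes were called.

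**Figure D1:**
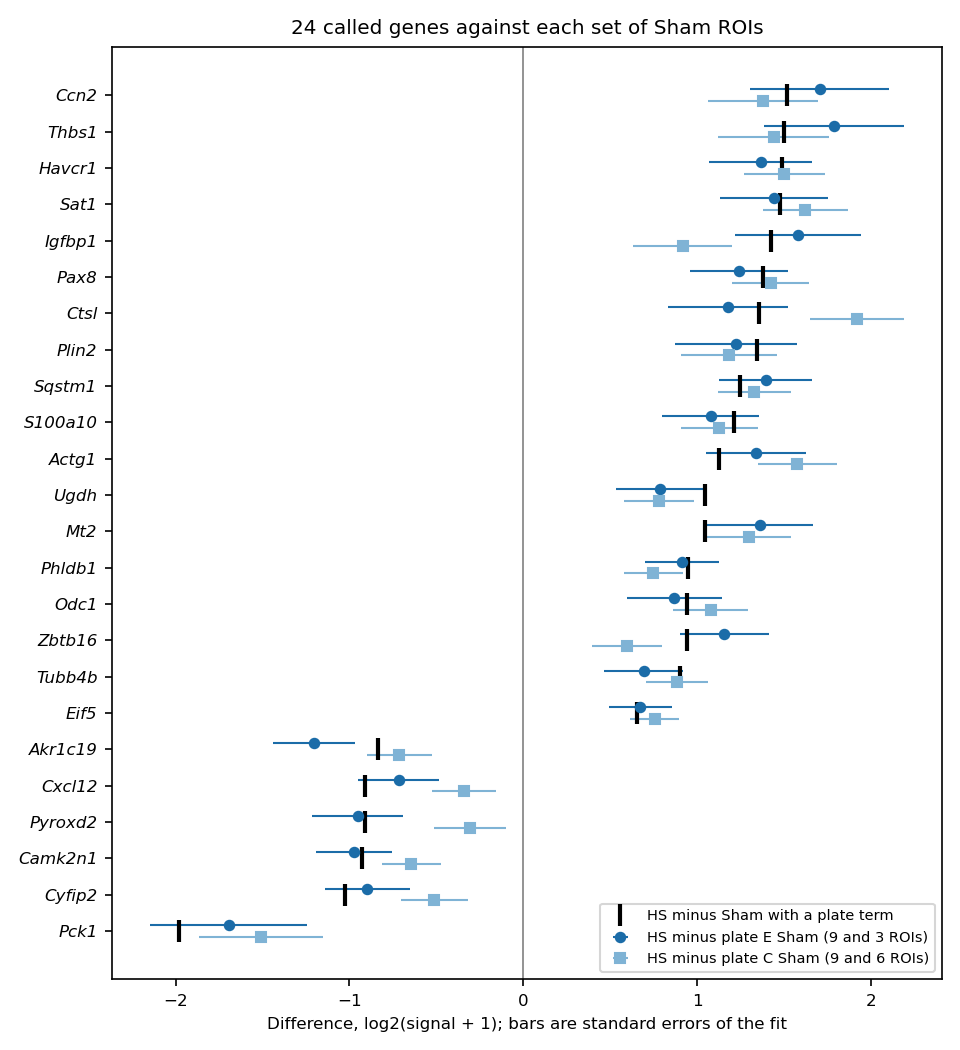
Difference between HS and Sham junction ROIs on the log2(signal + 1) scale for 24 of the 25 called genes, against plate E Sham (circles), against plate C Sham (squares) and with the plate term (bars). Whiskers are standard errors of the fit, and every gene shown lies on the same side of 0 in both comparisons.

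Havcr1 rose at the junction in every HS run. Its signal was 70.3 at the lowest, 122 at the median and 173 at the highest HS ROI. Plate E Sham ROIs had 41.2, 46.7 and 49.7, and plate C Sham ROIs ran between 33.2 and 46.3 with a median of 44.4. All 9 HS ROIs lay above all 9 Sham ROIs, with run 1 the lowest of the HS runs (70.3 to 99.0) and runs 2 and 3 overlapping. The mean was 124 ± 35.7 in HS and 43.2 ± 5.24 in Sham (SD, n = 9 each). The difference was 1.49 ± 0.25 (SE) with the plate term (limma, adjusted p = 0.000227), 1.37 ± 0.30 against plate E Sham (adjusted p = 0.0126) and 1.50 ± 0.23 against plate C Sham (adjusted p = 3.41e-06). Without HS run 3 the plate-adjusted difference was 1.37 (adjusted p = 1.39e-05). Leaving out any 1 of the 3 plate E Sham ROIs left 1.29 to 1.43 in the plate E comparison, which then did not pass (adjusted p = 0.0545 to 0.112).

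Havcr1 was the only one of 16 tested genes of tubular injury and repair that passed. The list's median difference was 0.33, beside -0.05 for all genes, and 13 of its 16 members had a positive value. Gdf15, a stress-induced cytokine, had 64.6 at the lowest, 130 at the median and 199 at the highest HS ROI, against 71.0, 71.6 and 75.1 in plate E Sham and 47.4 to 82.7 in plate C Sham. Its difference of 0.98 ± 0.28 did not pass (adjusted p = 0.114). Spp1, which encodes osteopontin, had 73.5 to 89.3 in HS run 1, 171 to 189 in run 2 and 378 to 1493 in run 3, against 43.8 to 116 in the 9 Sham ROIs. Its runs were thus far apart, and its difference of 1.14 ± 0.42 did not pass (adjusted p = 0.644) and was 0.31 without run 3. The epithelial keratin gene Krt8 differed by 0.70 ± 0.24 (adjusted p = 0.497), with 8 of 9 HS ROIs above all Sham ROIs.

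**Figure D2:**
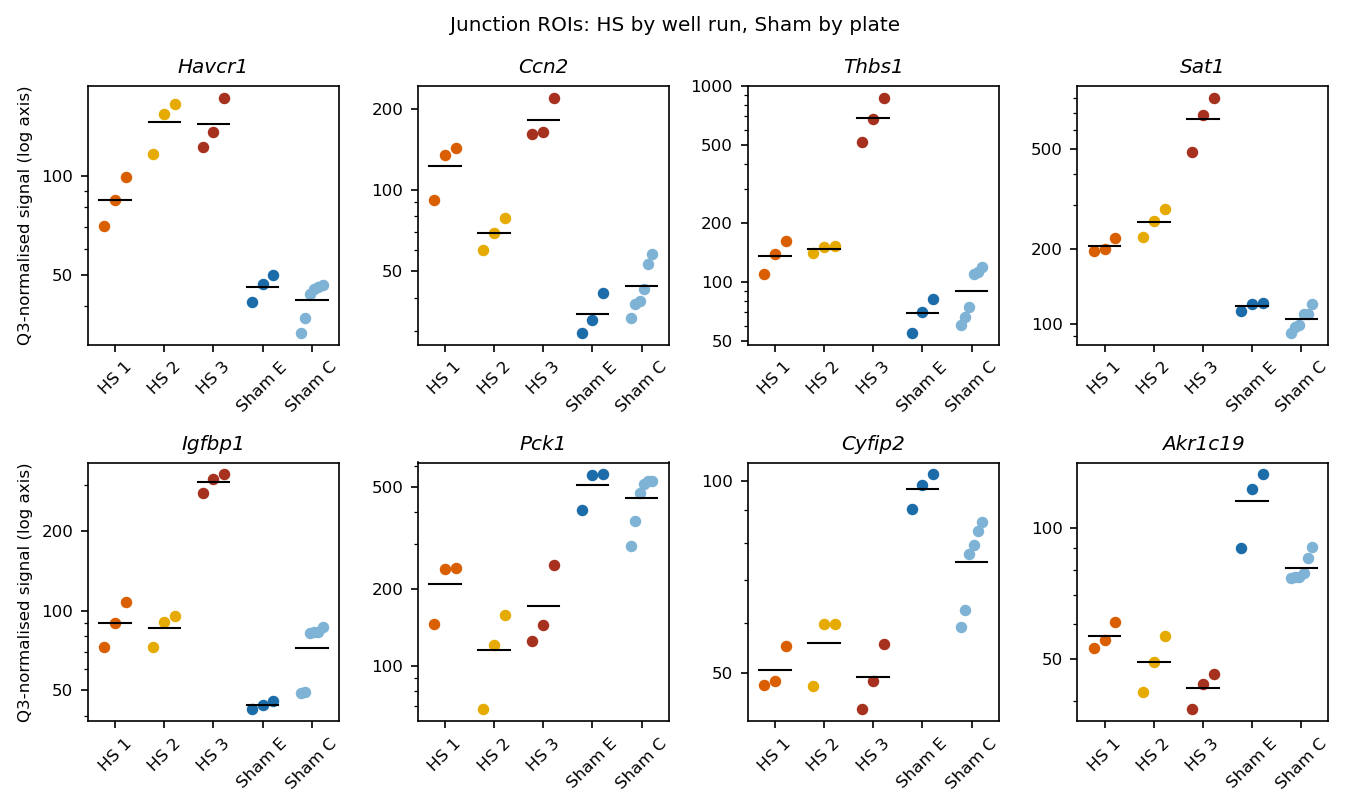
Normalised signal of 8 called genes in each junction ROI on a log axis, with HS by well run on the left and Sham by plate on the right. Points are ROIs and lines are means. Havcr1, Ccn2 and Sat1 are higher in all 9 HS ROIs than in any Sham ROI, Pck1 and Akr1c19 are lower in all 9, and HS run 3 is far above runs 1 and 2 for Thbs1, Sat1 and Igfbp1.

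Both matricellular genes Ccn2 and Thbs1 rose. Ccn2 had 59.8 at the lowest, 135 at the median and 219.6 at the highest HS ROI. The plate E Sham values were 29.6, 33.1 and 41.5, and plate C Sham ROIs had 33.8 to 58.2 with a median of 41.0. All HS ROIs lay above all Sham ROIs, the nearest pair being the lowest HS ROI of run 2 and the highest plate C ROI. The difference was 1.52 ± 0.34 with the plate term (limma, adjusted p = 0.0125), 1.71 ± 0.40 against plate E Sham (adjusted p = 0.0235) and 1.38 ± 0.32 against plate C Sham (adjusted p = 0.00517). Without HS run 3 it was 1.20 (adjusted p = 0.00271). Leaving out any 1 plate E Sham ROI left 1.60 to 1.84 in the plate E comparison, which then did not pass (adjusted p = 0.0575 to 0.339).

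Thbs1 encodes thrombospondin 1, a secreted glycoprotein that binds matrix and activates latent TGF-beta. It had 110 to 161 in HS run 1, 141 to 152 in run 2 and 521 to 872 in run 3. Against these, plate E Sham ROIs had 55.0, 70.7 and 82.0, and plate C Sham ROIs had 60.1 to 119 with a median of 92.1. Run 3 was far above the rest, and 8 of 9 HS ROIs exceeded every Sham ROI. The difference was 1.50 ± 0.35 with the plate term (limma, adjusted p = 0.0143), 1.79 ± 0.40 against plate E Sham (adjusted p = 0.0169) and 1.44 ± 0.32 against plate C Sham (adjusted p = 0.00351). Without HS run 3 it was 0.75 and did not pass (adjusted p = 0.25).

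Ccn2 and Thbs1 were the 2 members of 9 tested matricellular genes that passed, and the list's median was -0.06. Among 16 tested YAP and TEAD targets Ccn2 alone passed, and the list's median was 0.04. Fjx1, another member of that list, had 56.2 to 116 in HS ROIs with a median of 92.5, against 61.7, 69.6 and 70.8 in plate E Sham and a median of 51.8 in plate C Sham. Its difference of 0.60 ± 0.20 did not pass (adjusted p = 0.391), with HS run 3 lowest of the HS runs. Without HS run 3 the Fjx1 difference was 0.84 and passed (limma, adjusted p = 0.00256). Of 12 tested TGF-beta signalling genes 0 passed, with a median of -0.05. Timp3, a matrix-bound metalloproteinase inhibitor, had 186 to 318 in HS runs 1 and 2 and 729 to 1027 in run 3, against 127 to 204 in Sham. With the plate term the Timp3 difference did not pass (limma, adjusted p = 0.484). The separate differences, to which that p does not belong, were 1.12 ± 0.39 against plate E Sham and 1.40 ± 0.31 against plate C Sham. The plate-adjusted Timp3 difference was 0.41 without HS run 3 (adjusted p = 0.766).

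Ccn2 is a textbook TEAD target, so its promoter and that of Thbs1 are shown with the TEAD core motif GGAATG, searched on both strands, in capitals. The windows are the 250 bases before the start annotated by RefSeq in assembly GRCr8, written 5′ to 3′ along the gene. That of Ccn2 is chr1:22624615-22624864 on the minus strand and that of Thbs1 is chr3:125510000-125510249 on the plus strand.
Ccn2: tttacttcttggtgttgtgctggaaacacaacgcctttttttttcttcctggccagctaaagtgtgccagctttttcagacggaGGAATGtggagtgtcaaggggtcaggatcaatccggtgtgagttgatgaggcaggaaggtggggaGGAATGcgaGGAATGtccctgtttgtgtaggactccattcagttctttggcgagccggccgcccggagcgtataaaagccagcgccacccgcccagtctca
Thbs1: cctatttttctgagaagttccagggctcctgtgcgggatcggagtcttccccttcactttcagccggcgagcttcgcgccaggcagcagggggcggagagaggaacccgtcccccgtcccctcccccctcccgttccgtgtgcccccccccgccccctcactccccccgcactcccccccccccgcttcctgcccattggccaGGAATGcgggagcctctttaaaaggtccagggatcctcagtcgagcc
The Ccn2 window held 3 matches, whose first bases lie at -166, -101 and -92 from the start, and the Thbs1 window held 1 match at -47. At least 1 match occurred in 12.1% of 33469 promoter windows of the same length, and 3 or more in 0.0807%. Of the 25 called genes 20 had a window under the same symbol, and 3 of these (Ccn2, Thbs1 and Ugdh) held the motif. A match describes letters in the sequence and not binding.

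The window before the Havcr1 start, chr10:31629528-31629777 on the plus strand, held no TEAD or cAMP motif and held 1 match to the hypoxia response element core NACGTG, at -92, here in capitals.
Havcr1: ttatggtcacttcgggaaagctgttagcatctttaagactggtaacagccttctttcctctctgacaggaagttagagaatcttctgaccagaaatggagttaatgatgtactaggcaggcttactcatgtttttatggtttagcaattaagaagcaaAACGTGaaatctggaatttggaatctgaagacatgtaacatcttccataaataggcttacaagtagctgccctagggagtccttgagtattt
That core occurred in 16.5% of all windows and in 5 of the 20 called genes with a window. The AP-1 motif TGANTCA, the glucocorticoid response element and the HNF1 motif occurred in 0 of the 20, and in 6.34%, 0.373% and 0.0329% of all windows. The metal response element TGCNCNC occurred in 8 of the 20 and in 43.4% of all windows.

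Pck1 fell furthest of the 6 fallen genes. Its signal was 67.8 at the lowest, 146 at the median and 247 at the highest HS ROI. Plate E Sham ROIs had 406, 555 and 559, and plate C Sham ROIs had 294 to 527 with a median of 492.8. All 9 HS ROIs lay below all 9 Sham ROIs, and run 2 was the lowest of the HS runs. The mean was 166 ± 63.3 in HS and 469 ± 92.7 in Sham (SD, n = 9 each). The difference was -1.98 ± 0.40 with the plate term (limma, adjusted p = 0.00233). Against plate E Sham it was -1.70 ± 0.45 and did not pass (adjusted p = 0.0982), and against plate C Sham it was -1.51 ± 0.36 (adjusted p = 0.00715). Without HS run 3 the plate-adjusted difference was -2.03 (adjusted p = 1.56e-05).

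Of 14 tested genes of gluconeogenesis and fructose metabolism Pck1 alone passed, and the list's median was -0.06, beside -0.05 for all genes. G6pc, which encodes the glucose-6-phosphatase that ends gluconeogenesis, had 67.5 at the lowest, 99.2 at the median and 157 at the highest HS ROI, against 53.7, 54.8 and 70.8 in plate E Sham and 42.6 to 75.8 in plate C Sham. Its values in 8 of 9 HS ROIs exceeded every Sham ROI, yet the difference of 0.82 ± 0.31 did not pass (adjusted p = 0.735). The fructokinase gene Khk differed by -0.53 ± 0.23 (adjusted p = 1), with 225 to 276 in HS runs 1 and 2 and 424 to 545 in run 3. Without run 3 the Khk difference was -0.85 and passed (adjusted p = 0.00909).

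The rat Pck1 promoter is a textbook case of control by cAMP, and its element TTACGTCA is shown in capitals in the window chr3:182348322-182348571 on the plus strand of GRCr8.
Pck1: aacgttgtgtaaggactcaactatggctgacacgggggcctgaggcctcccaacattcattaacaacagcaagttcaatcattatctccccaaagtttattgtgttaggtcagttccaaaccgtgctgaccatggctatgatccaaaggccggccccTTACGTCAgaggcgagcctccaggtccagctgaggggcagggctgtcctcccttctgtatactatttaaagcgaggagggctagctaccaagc
The match begins at -93. This form or TGACGTCA, on either strand, occurred in 2.32% of all windows and in 1 of the 20 called genes with a window. The letters ACGT are common to this element and to the hypoxia core.

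Among polyamine genes Sat1 and Odc1 rose. Sat1 encodes the acetyltransferase that starts polyamine breakdown, and had 196 at the lowest, 258 at the median and 804 at the highest HS ROI. Plate E Sham ROIs had 113, 121 and 122, and plate C Sham ROIs had 92.3 to 120.0 with a median of 104. Every HS ROI was above every Sham ROI, and run 3 was the highest run at 489 to 804. The difference was 1.48 ± 0.27 with the plate term (limma, adjusted p = 0.000663), 1.44 ± 0.31 against plate E Sham (adjusted p = 0.0126) and 1.62 ± 0.25 against plate C Sham (adjusted p = 1.94e-06). Without run 3 it was 0.98 (adjusted p = 0.0091).

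Odc1 encodes ornithine decarboxylase, which makes the first polyamine, putrescine. It had 574 to 722 in HS runs 1 and 2 and 2152 to 2361 in run 3, against 460, 537 and 627 in plate E Sham and 346 to 637 in plate C Sham. Runs 1 and 2 overlapped Sham, and the rise of 0.94 ± 0.24 (limma, adjusted p = 0.045) was 0.34 without run 3 (adjusted p = 0.681). These were 2 of 9 tested polyamine genes, whose median was -0.03.

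Of 14 tested genes of the NRF2, metallothionein and oxidative stress list, Sqstm1 and Mt2 rose, and the list's median was 0.08. Sqstm1 encodes the autophagy receptor p62, itself an NRF2 target. It had 273 at the lowest, 372 at the median and 460.2 at the highest HS ROI, against 127, 137 and 137 in plate E Sham and 116 to 159 in plate C Sham. The HS runs lay close together, and the groups did not overlap. The difference was 1.25 ± 0.23 with the plate term (limma, adjusted p = 0.000663), 1.40 ± 0.27 against plate E Sham and 1.33 ± 0.21 against plate C Sham (adjusted p = 0.00542 and 4.77e-06). Without run 3 it was 1.11 (adjusted p = 0.000189).

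Mt2, a zinc- and copper-binding metallothionein, had 856 to 1196 in HS runs 1 and 2 and 2816 to 3294 in run 3. In plate E Sham the values were 553, 558 and 644, and plate C Sham ROIs had 528 to 664. All HS ROIs were above all Sham ROIs. The rise was 1.04 ± 0.26 with the plate term (limma, adjusted p = 0.0466) and 0.52 without run 3 (adjusted p = 0.275). Its paralogue Mt1 had 243 to 391 in HS and 184 to 263 in Sham, and its difference of 0.47 ± 0.21 did not pass (adjusted p = 1).

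The actin list held a rise and a fall among 20 tested genes, with a median of 0.24. Actg1, cytoplasmic gamma-actin, had 905 to 947 in HS run 1, 553 to 582 in run 2 and 1908 to 2254 in run 3. Plate E Sham ROIs had 387, 406 and 419, and plate C Sham ROIs had 308 to 360.1. The 3 HS runs did not overlap each other, and all lay above Sham. The rise was 1.12 ± 0.25 with the plate term (limma, adjusted p = 0.00966), 1.34 ± 0.29 against plate E Sham (adjusted p = 0.0126) and 1.58 ± 0.23 against plate C Sham (adjusted p = 6.99e-07). Without run 3 it was 0.63 and did not pass (adjusted p = 0.165). The close paralogue Actb differed by 0.28 ± 0.21 (adjusted p = 1), and whether its RNA binds the same probe was not tested.

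Cyfip2, a subunit of the WAVE complex that starts branched actin filaments, fell. It had 43.9 at the lowest, 48.7 at the median and 59.8 at the highest HS ROI, against 90.4, 98.7 and 103 in plate E Sham and 59.1 to 86.5 in plate C Sham. Of the 9 HS ROIs 7 were below every Sham ROI. The fall was -1.02 ± 0.21 with the plate term (limma, adjusted p = 0.00279), and it did not pass against plate E Sham (-0.90 ± 0.24, adjusted p = 0.108) or plate C Sham (-0.51 ± 0.19, adjusted p = 0.134).

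Arhgap24, a Rac-directed GTPase activator of the same list, showed the opposite sign in the 2 comparisons and is not kept. It had 44.2 to 72.4 in HS, against 115, 119 and 128 in plate E Sham and 25.4 to 62.1 in plate C Sham. The difference was -1.05 ± 0.34 against plate E Sham (limma, adjusted p = 0.398) and 0.50 ± 0.27 against plate C Sham (adjusted p = 0.285).

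Igfbp1, a binding protein for insulin-like growth factors, rose. It had 72.7 to 108 in HS runs 1 and 2 and 281 to 329 in run 3, against 42.3, 43.9 and 45.6 in plate E Sham and 48.8 to 86.5 in plate C Sham. All HS ROIs were above plate E Sham, whereas runs 1 and 2 overlapped plate C Sham. The difference was 1.42 ± 0.31 with the plate term (limma, adjusted p = 0.00966), 1.58 ± 0.36 against plate E Sham (adjusted p = 0.0191) and 0.92 ± 0.29 against plate C Sham (adjusted p = 0.0618). Without run 3 it was 0.82 (adjusted p = 0.0599). It alone passed among 8 tested genes of IGF binding, whose median was -0.21.

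Zbtb16, a transcription factor induced by glucocorticoids, rose by 0.94 ± 0.22 (limma, adjusted p = 0.0206). HS ROIs had a median of 71.7, with 49.0 to 74.3 in runs 1 and 2 and 96.9 to 127 in run 3. Plate E Sham ROIs had 26.4, 33.1 and 42.9, and plate C Sham ROIs had 41.6 to 61.9, overlapping HS run 1. Without HS run 3 the Zbtb16 difference was 0.68 and did not pass (adjusted p = 0.0545). Of 13 tested genes in the glucocorticoid and circadian list it alone passed, and the median was 0.11. Tsc22d3, the glucocorticoid-induced leucine zipper gene, had 33.9 to 57.0 in HS runs 1 and 2 and 113 to 165 in run 3, against 29.6 to 73.5 in Sham. Its difference of 0.98 ± 0.26 did not pass (adjusted p = 0.0598), and it was 0.18 ± 0.24 against plate C Sham. Without run 3 the plate-adjusted Tsc22d3 difference was 0.45 (adjusted p = 0.458).

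**Figure D3:**
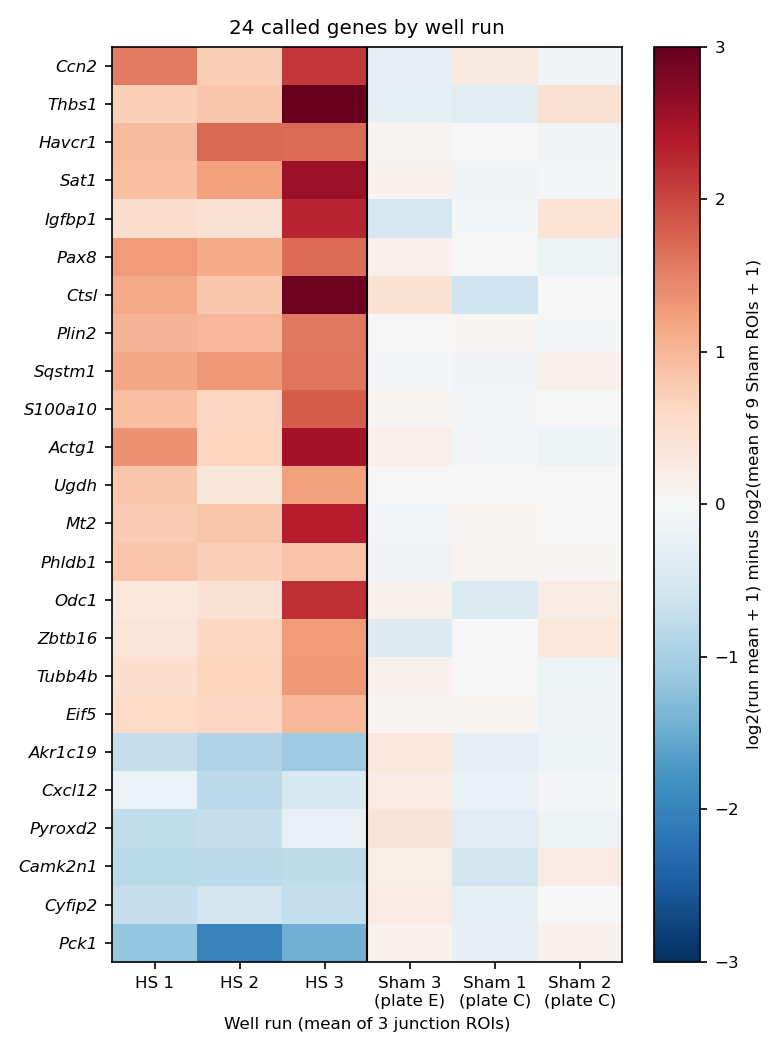
Mean signal of 3 junction ROIs per well run for 24 of the 25 called genes, as log2 difference from the mean of the 9 Sham ROIs, with HS runs on the left. All 18 risen genes shown are higher in each HS run than in any Sham run, and HS run 3 has the highest mean for 17 of them.

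Pax8, a transcription factor of the nephron lineage, rose in each HS run. It had 118 at the lowest, 165 at the median and 223 at the highest HS ROI, against 53.9, 75.2 and 82.5 in plate E Sham and 56.3 to 68.5 in plate C Sham. The groups did not overlap. The difference was 1.38 ± 0.26 with the plate term (limma, adjusted p = 0.000771), 1.24 ± 0.28 against plate E Sham (adjusted p = 0.0169) and 1.42 ± 0.22 against plate C Sham (adjusted p = 3.61e-06). Without run 3 it was 1.21 (adjusted p = 0.000492).

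Plin2, which coats lipid droplets, had 80.8 at the lowest, 105 at the median and 164 at the highest HS ROI, against 35.8, 50.8 and 55.3 in plate E Sham and 43.8 to 55.2 in plate C Sham. The groups did not overlap, and the rise was 1.34 ± 0.30 (limma, adjusted p = 0.00966). It alone passed among 10 tested genes of fatty acid oxidation and lipid storage, whose median was -0.16. Ctsl, a lysosomal protease, had 157 to 227 in HS runs 1 and 2 and 611 to 839 in run 3, against 125, 128 and 133 in plate E Sham and 53.7 to 99.2 in plate C Sham. Its rise was 1.36 ± 0.31 (adjusted p = 0.0143) and 0.71 without run 3 (adjusted p = 0.159). S100a10, the partner of annexin A2, had 104 to 156 in runs 1 and 2 and 247 to 275 in run 3, against 65.6 to 84.9 in Sham, and rose by 1.21 ± 0.24 (adjusted p = 0.00227). Without run 3 S100a10 rose by 0.85 (adjusted p = 0.013).

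Other risen genes had HS ROIs above all or nearly all Sham ROIs. Phldb1, a protein with a pleckstrin homology domain, had 84.0 to 115 in HS, against 44.7, 53.9 and 55.0 in plate E Sham and 48.6 to 68.3 in plate C Sham, and rose by 0.95 ± 0.19 (limma, adjusted p = 0.00227). Ugdh, which makes the precursor of glucuronides and hyaluronan, had 50.7 to 128 in HS and 45.9 to 50.7 in Sham and rose by 1.05 ± 0.23 (adjusted p = 0.00966). The translation initiation factor gene Eif5 rose by 0.66 ± 0.15 and the beta-tubulin gene Tubb4b by 0.90 ± 0.22 (adjusted p = 0.018 and 0.0252). Without HS run 3 the Tubb4b difference was 0.67 and did not pass (adjusted p = 0.0639). Phldb1, Eif5 and Tubb4b were named after their values were seen.

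Besides Pck1 and Cyfip2, 4 genes fell. Akr1c19, an aldo-keto reductase, had 38.2 at the lowest, 49.2 at the median and 60.9 at the highest HS ROI, against 90.1, 123 and 133 in plate E Sham and 76.9 to 90.4 in plate C Sham. The groups did not overlap, and the difference was -0.83 ± 0.21 with the plate term (limma, adjusted p = 0.0466), -1.20 ± 0.24 against plate E Sham (adjusted p = 0.00542) and -0.71 ± 0.19 against plate C Sham (adjusted p = 0.0198). Camk2n1, an inhibitor of the kinase CaMKII, had 76.5 to 109.8 in HS, against 172, 172 and 196 in plate E Sham and 94.4 to 210.2 in plate C Sham, and fell by 0.93 ± 0.20 (adjusted p = 0.0056). The HS ROIs were below all plate E Sham ROIs and overlapped plate C Sham.

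Cxcl12, a chemokine of stromal cells, had 40.4 to 71.4 in HS, against 79.6, 88.8 and 92.5 in plate E Sham and 60.8 to 73.1 in plate C Sham, and fell by 0.91 ± 0.21 with the plate term (limma, adjusted p = 0.0143). That value exceeded in size both -0.72 ± 0.23 against plate E Sham (adjusted p = 0.448) and -0.34 ± 0.18 against plate C Sham (adjusted p = 0.295), and the mean of HS run 1 was not below that of Sham run 1. It was the sole member of 9 tested cytokine and NF-kB genes that passed. Pyroxd2, an oxidoreductase domain protein, had 184 to 329.6 in HS, against 461, 470 and 470 in plate E Sham and 234 to 336 in plate C Sham, and fell by 0.91 ± 0.23 (adjusted p = 0.0423), with -0.95 ± 0.26 against plate E Sham and -0.31 ± 0.21 against plate C Sham. Neither gene passed against plate E Sham or plate C Sham alone. Ppm1k, the phosphatase that activates branched-chain amino acid breakdown, passed against plate E Sham (-1.13 ± 0.27, adjusted p = 0.027) and plate C Sham (-0.71 ± 0.21, adjusted p = 0.0475) but not with the plate term (-0.86 ± 0.24, adjusted p = 0.0926). It had 107 to 189 in HS and 192 to 346 in Sham, and was named after its values were seen. Without HS run 3 the plate-adjusted Ppm1k difference was -1.04 and passed (adjusted p = 0.00125).

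Genes that mark the tubule segments did not pass with the plate term when all runs were fitted. Of 12 tested straight proximal tubule genes and 16 tested proximal tubule genes 0 passed, with medians of 0.06 and -0.02. Slc34a1, the phosphate cotransporter of the proximal tubule, had 107 to 379 in HS with a median of 189, against 251, 275 and 286 in plate E Sham and 163 to 256 in plate C Sham. The ranges overlapped, and the difference was -0.51 ± 0.29 (limma, adjusted p = 1). Mat2a, which makes S-adenosylmethionine, had 1019 to 1584 in HS runs 1 and 2 and 1911 to 2408 in run 3, against 2598, 2984 and 3290 in plate E Sham and 1256 to 2536 in plate C Sham. It passed against plate E Sham (-0.99 ± 0.24, adjusted p = 0.0428) but not with the plate term (-0.73 ± 0.21, adjusted p = 0.163). Without HS run 3 the plate-adjusted Mat2a difference was -1.01 and passed (adjusted p = 0.000492).

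All 8 tested thick ascending limb genes had negative differences, with a median of -0.39, and 0 passed. Egf had 159 to 212 in HS runs 1 and 2 and 432 to 667 in run 3, against 384, 432 and 446 in plate E Sham and 266 to 425 in plate C Sham. Runs 1 and 2 were below all Sham ROIs, and run 3 overlapped or exceeded them. The difference in Egf was -0.73 ± 0.28 (limma, adjusted p = 0.713), and without run 3 it was -1.20 (adjusted p = 0.000492). Kcnj1, the potassium channel of this segment, differed by -0.53 ± 0.25 (adjusted p = 1). The summed signal of the 8 genes was 725 to 1832 in HS, 1183 to 1332 in plate E Sham and 852 to 1274 in plate C Sham.

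Of 8 podocyte, 5 endothelial, 9 mesangial and fibroblast, 5 macrophage, 1 neutrophil, 2 lymphocyte, 4 muscle and 2 erythroid genes tested, 0 passed. The summed macrophage signal was 184 to 291 in HS, 218 to 237 in plate E Sham and 166 to 260.4 in plate C Sham. The summed podocyte signal was 188 to 331 in HS, 236 to 278 in plate E Sham and 285 to 313 in plate C Sham, with 0 of the 8 genes above 2 times the negative probe at the junction. The summed signal of the erythroid list was 296 to 1277 in HS, 384 to 718 in plate E Sham and 589 to 1072 in plate C Sham. Of 17 tested hypoxia and glycolysis genes 0 passed, with a median of 0.18. The glucose transporter gene Slc2a1 had 54.9 to 88.9 in HS and 37.6 to 59.0 in Sham, a difference of 0.76 ± 0.21 (limma, adjusted p = 0.0876). Without HS run 3 the Slc2a1 difference was 0.72 and passed (adjusted p = 0.0366). Of 28 immediate early, 10 heat shock, 10 integrated stress and unfolded protein response and 16 mitochondrial electron transport genes, 0 passed, with medians of 0.05, 0.12, 0.22 and -0.05.

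The HS effect at the junction differed from that in cortex for 17 genes (0.193%), with 5 more positive (0.0566%) and 12 more negative (0.136%) at the junction. It differed from that in medulla for 9 genes (0.102%), with 8 more positive (0.0906%) and 1 more negative (0.0113%). Cortex had 9 HS and 9 Sham ROIs and medulla had 6 HS and 9 Sham ROIs. The HS medulla ROIs came from HS runs 1 and 2. The medulla contrasts thus set the junction ROIs of all 3 HS runs, run 3 included, against medulla ROIs of runs 1 and 2. In medulla the HS ROIs of run 2 held an estimated 66598, 128229 and 138976 reads. Those of run 1 held 494654 to 1157391, and Sham medulla ROIs held 611949 to 1572356. The part of this low depth in the medulla contrasts was not tested. Of the genes named here with a call in either area test, Actg1 against medulla alone passed within plate E alone, and Havcr1 against cortex alone passed with 1 mean per well run and area.

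Havcr1 had 25.1 at the lowest, 29.1 at the median and 49.5 at the highest HS ROI in cortex, against 32.6, 44.3 and 53.9 in Sham cortex. In medulla it had 23.7, 44.0 and 58.2 in HS, against 31.7, 38.4 and 48.2 in Sham. The HS and Sham ranges overlapped in both areas. The effect at the junction exceeded that in cortex by 1.80 ± 0.24 (limma, adjusted p = 8.35e-08) and that in medulla by 1.33 ± 0.26 (adjusted p = 0.00437). Without Sham run 2 the Havcr1 difference from medulla was 1.28 and did not pass (adjusted p = 0.0936). Within plate E alone the Havcr1 differences were 1.58 from cortex and 1.08 from medulla, and neither passed (adjusted p = 1 for each).

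Pck1 had 407 at the lowest, 808 at the median and 4226 at the highest HS ROI in cortex, against 339, 504 and 1637 in Sham cortex. In medulla it was low in both groups, at 25.4 to 65.9 in HS and 26.4 to 41.8 in Sham. The effect at the junction was more negative than in cortex by -2.43 ± 0.38 (limma, adjusted p = 1.25e-05) and than in medulla by -2.01 ± 0.41 (adjusted p = 0.00827). Within cortex the Pck1 difference was -0.17 ± 0.45 against plate E Sham and 1.37 ± 0.36 against plate C Sham. Within plate E alone, the difference of effects between junction and cortex was -1.53 and did not pass (adjusted p = 1). On both plates without HS run 3 it was -1.62, with the plate term, and did not pass (adjusted p = 0.093). The Pck1 difference from medulla was -1.56 without HS run 2 (adjusted p = 0.436), -1.91 without Sham run 2 (adjusted p = 0.107) and -1.92 without Sham run 3 (adjusted p = 0.0595), and did not pass in these fits.

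**Figure D4:**
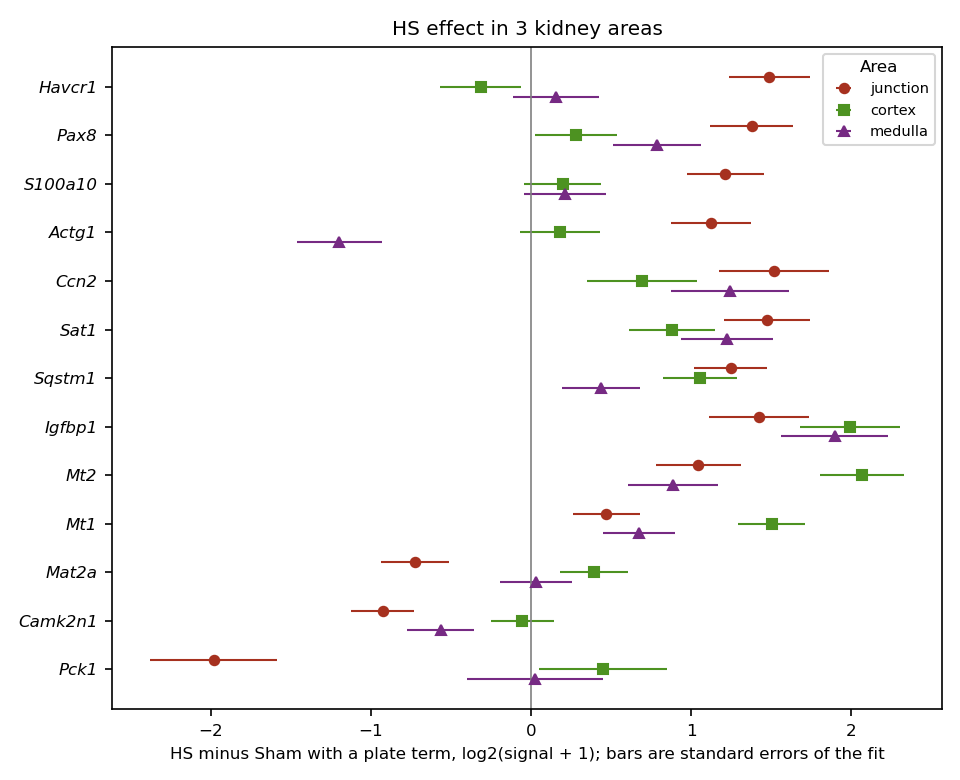
HS minus Sham difference with the plate term at the junction (circles), in cortex (squares) and in medulla (triangles) on the log2(signal + 1) scale, with standard errors of the fit. Havcr1 and Pck1 depart from 0 at the junction and lie closer to 0 in cortex and medulla, Actg1 has opposite signs at the junction and in medulla, and Mt2 and Mt1 are furthest right in cortex.

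Actg1 had opposite directions at the junction and in medulla. In medulla it had 160 at the lowest, 352 at the median and 503 at the highest HS ROI, against 453, 787 and 1022 in Sham, a difference of -1.20 ± 0.27 (limma, adjusted p = 0.00803). The difference of effects was 2.32 ± 0.26 (adjusted p = 1.11e-11). Tmbim1, a transmembrane BAX inhibitor motif protein, differed likewise between junction and medulla by 1.26 ± 0.29 (adjusted p = 0.00881). That call was lost without HS run 3 (0.89, adjusted p = 0.318), HS run 2 (1.09, adjusted p = 0.431), Sham run 1 (1.13, adjusted p = 0.0923) and Sham run 2 (1.17, adjusted p = 0.101). At the junction Tmbim1 had 35.2 to 51.8 in HS runs 1 and 2 and 116 to 134 in run 3, against 22.9 to 35.8 in Sham, and its difference of 0.99 ± 0.25 did not pass (adjusted p = 0.0502) and was 0.49 without run 3.

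The metallothioneins showed a smaller effect at the junction than in cortex. Mt2 had 1245 at the lowest, 1351 at the median and 6239 at the highest HS ROI in cortex, against 243, 414 and 816 in Sham cortex, and the junction effect was less by -1.02 ± 0.25 (limma, adjusted p = 0.0493), and by -0.84 without HS run 3, which did not pass (adjusted p = 0.228). For Mt1 the effect at the junction was less by -1.03 ± 0.20 (adjusted p = 0.00203), and without HS run 3 by -0.63, which did not pass (adjusted p = 0.656). For Mat2a the junction effect was more negative than in cortex by -1.12 ± 0.20 (adjusted p = 0.00056). Pax8 and S100a10 rose more at the junction than in cortex, by 1.10 ± 0.25 and 1.02 ± 0.23 (adjusted p = 0.0171 and 0.0194), and Camk2n1 was more negative by -0.87 ± 0.19 (adjusted p = 0.0115). These 3 differences were 0.87, 0.77 and -0.67 without HS run 3 and did not pass (adjusted p = 0.774, 0.684 and 0.658). Mt2, Pax8, S100a10 and Camk2n1 also lost the call without Sham run 1 or Sham run 2, and Mt2 without HS run 1. Igfbp1 gave no call in either test, with effects of 1.42 at the junction, 1.99 in cortex and 1.90 in medulla. The Igfbp1 effect at the junction less that in cortex was -0.57 ± 0.30 (limma, adjusted p = 1).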

How the data were processed

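The deposited table holds signal normalised by the authors to the upper quartile of each ROI (Q3), for 9271 genes and 1 negative probe in 132 ROIs. Its software was not given in the sources used here. GRCh38 and hg38 are the builds in the submitters' processing notes. Probes were designed for mouse, and mismatches to rat RNA were not examined. Gene names are mouse symbols, of which 8432 of 9271 occur in the RefSeq rat table (GRCr8), as do 24 of the 25 called. Reads per ROI are estimates from the smallest step of which 100% of values were whole multiples within 1e-04. They were used for depth alone: the step can lie below the lowest value, and a check that takes the lowest value as about 1 read did not accept most columns as whole reads. No pair among the 153 pairs of junction ROIs was identical.

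Genes were tested where 10% or more of the ROIs exceeded the negative probe by a factor of 2 (8827 kept, 444 left out). Log2(signal + 1) of 131 ROIs, without the single ROI of plate A, was fitted in limma 3.58.1 (R 4.3.3, statmod 1.5.0) with means of injury group and area and a plate term. The well run was a random block (consensus correlation 0.132). A second fit split Sham by plate (0.136). Variances were moderated with a trend, and p-values were two-sided and Benjamini-Hochberg adjusted over 8827 genes. The fit was also run on data simulated from the same model, with its plate term and run correlation. Such data cannot test a plate shift that differs between areas or how far well runs stand for animals. Comparisons against plate E Sham and plate C Sham share the same HS ROIs, and those across areas share well runs.

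The members, the 34 gene lists and the tests were chosen with earlier results of these data known. Named genes were Havcr1, Ccn2, Pck1 and Slc34a1, the 12 largest rises and 12 largest falls among called genes of 1 sign, the 3 members of each list with the lowest p (a selection of these is printed) and the 4 lowest p of each area test. Promoters are RefSeq windows. Alternatives were another pseudocount, other filters, quantile normalization, negative-probe subtraction, other designs, and leaving out well runs or plate E Sham ROIs. Results for some genes are not reported here.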

Additional observations from a re-analysis of the deposited data

Results flagged for a closer look

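Among 88 sets of 9 junction ROIs (44 genes in HS and in Sham), 5 held a ROI far from the others by Dixon's criterion. Chance gives about 1 in 20 for independent, normally distributed values. ROIs of a well run are not independent, so that rate is not a measure for these sets. In HS run 3 a single ROI had 1493 for Spp1 and a single ROI had 130.0 for Kcnj1. In plate E Sham a single ROI had 204 for Timp3 and a single ROI had 111 for Tubb4b. In Sham run 1 on plate C a single ROI had 22.9 for Tmbim1.

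The HS effect at the junction differed from that in cortex, by the interaction contrast in limma, for 9 genes described here: Havcr1 (1.80), Pck1 (-2.43), Mat2a (-1.12), Mt1 (-1.03), Mt2 (-1.02), Pax8 (1.10), S100a10 (1.02), Fjx1 (0.90, adjusted p = 0.00854) and Camk2n1 (-0.87). It differed from that in medulla for Actg1 (2.32), Havcr1 (1.33), Pck1 (-2.01) and Tmbim1 (1.26). These values are log2 differences, and causes were not tested. Without Sham run 1, 3 of the 17 calls against cortex remained, 1 of them more positive at the junction. Without Sham run 2, 4 remained, again 1 of them more positive. At most 1 of Havcr1, Pax8, S100a10 and Fjx1 thus kept its call in each of these fits.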

How the results depend on the processing

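All 25 called genes kept their sign under every alternative in which they were tested. The alternatives reuse ROIs on which the genes were called, so the kept signs are not independent support. The 9 called at every leave-out that could be fitted were Cyfip2, Havcr1, Pax8, Pck1, Phldb1, Plin2, S100a10, Sat1 and Sqstm1. Calls with the plate term numbered 25, and 23 to 37 under other pseudocounts, filters, quantile normalization (22 higher, 15 lower), negative-probe subtraction and junction ROIs alone (15 higher, 13 lower). They numbered 114 without the plate term, 65 without the random block (64 agreeing in sign), and 0 for plate E alone and for 1 mean per well run and area. Leaving out 1 well run or Sham ROI gave 13 to 73 calls (13 to 73 agreeing in sign). Without HS run 3 there were 73 (26 higher, 47 lower), 17 of them shared with the 25; without HS run 2 there were 73 (57 higher, 16 lower), 24 shared; without Sham run 2 there were 13. Leave-outs of HS run 3 and Sham run 2 removed 8 and 12 of the 25.

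Against plate E Sham the 17 calls became 28 under quantile normalization, 3 with the negative probe subtracted, 0 for plate E alone and for run means, 28 for junction ROIs alone and 38 without the block. Leave-outs gave 0 to 48, with 0, 0 and 3 without single plate E Sham ROIs. Against plate C Sham the 190 calls became 433, 339, 4 and 597 under quantile normalization, junction ROIs alone, run means and no block, and 16 to 1223 at leave-outs. The 17 differences from cortex became 56 (quantile), 5 (negative probe subtracted), 0 (plate E alone), 1 (run means) and 6 (no block), and 3 to 63 at leave-outs. The 9 differences from medulla became 1 (negative probe subtracted), 1 (plate E alone) and 0 (run means), and 1 to 306 at leave-outs. The cause of these shifts was not tested.

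Without Sham run 3 no plate E Sham ROI remains, so the plate-adjusted and plate E comparisons give no value. The planned count test was not run. No paired analysis was possible because the labels carry no replicate numbers. Reads per ROI and the small number of plate E Sham ROIs limit the precision.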
